A study of Mus musculus with 18 samples.

Results

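The Cyp3a genes of the mouse encode cytochrome P450 enzymes of the liver and gut, and 9 of them were followed here: Cyp3a11, Cyp3a13, Cyp3a16, Cyp3a25, Cyp3a41a, Cyp3a41b, Cyp3a44, Cyp3a57 and Cyp3a59. Their members on the array were all non-control probes whose gene name in the array files was one of these symbols, which gave 11 probes of 8 genes, among 39429 non-control probes of 31829 gene names. Cyp3a41a had no probe under its own name, but the probe named Cyp3a41b lists transcripts of both genes. The genes were chosen because several of them differed between the diets in these same arrays, so each diet difference of a Cyp3a probe given here is a description and carries no test.

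Liver RNA of 18 male mice of the inbred strain C57BL/6J was hybridised to 1-colour Agilent arrays, with 1 array per mouse. Mice were randomised at 8 weeks of age to 5 weeks on a soft high-fat diet, and were 13 weeks old when the liver was taken. In the linseed group (LIN, n = 8) the fat was linseed oil, with 9.7% saturated, 22.5% monounsaturated and 66.7% polyunsaturated fatty acids, and alpha-linolenic acid alone made up 49.7% of all fatty acids. In the palm group (PALM, n = 10) it was palm oil, with 55.6% saturated, 34.8% monounsaturated and 8.8% polyunsaturated fatty acids. Both diets supplied 51.1% of energy as lipid, 32.1% as carbohydrate and 16.7% as protein, and no group on a low-fat diet is part of the comparison, so a difference gives no sign of which oil moved a gene.

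CYP3A enzymes sit in the endoplasmic reticulum, receive electrons from P450 oxidoreductase and oxidise a wide range of drugs, steroids and bile acids. In liver their genes are switched on by the nuclear receptors PXR and CAR, which pair with RXR and bind repeated half-sites, on a background set by hepatocyte factors such as HNF4A. Cyp3a11 is the main adult hepatic form, whereas Cyp3a16, Cyp3a41a, Cyp3a41b and Cyp3a44 are known for higher expression in female or newborn than in adult male mouse liver.

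The genes lie on chromosome 5. In the RefSeq table of GRCm38.p6, Cyp3a13 stands alone, and the other 8 follow each other without another protein-coding gene between them, in the order Cyp3a57, Cyp3a16, Cyp3a41b, Cyp3a41a, Cyp3a44, Cyp3a11, Cyp3a25 and Cyp3a59. Probe positions are those of the array files, in mm9, and exon or UTR annotation of these positions was not used here. The probe of Cyp3a16 lies at chr5:146197274-146197333, that of Cyp3a41b at chr5:146319794-146319853, the brighter Cyp3a11 probe at chr5:146666237-146666296 and the brighter Cyp3a59 probe at chr5:146920638-146920697. Those of Cyp3a57, Cyp3a44 and Cyp3a25 lie at chr5:146151322-146151381, chr5:146585717-146585776 and chr5:146788879-146788938. The brighter Cyp3a13 probe lies at chr5:138335412-138335471.

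Because the genes resemble each other, the probe sequences decide which transcript a signal can be credited to. The first 3 probes below, each of 60 bases, are shown as the array files give them. The dimmer Cyp3a11 probe spans 1868 bases of genome, from chr5:146672058-146673925, and therefore crosses a splice junction. It lists transcripts of Cyp3a11, Cyp3a41a, Cyp3a41b and Cyp3a44, and its signal cannot be credited to 1 gene. Capitals in the Cyp3a59 probe mark the codons of the conserved loop that ends in the cysteine that holds the heme iron, and those in the Cyp3a57 probe mark the stop codon. The last pair are stretches of 30 bases from the Cyp3a41b and Cyp3a44 probes, with a shared run of 23 bases in capitals.
Cyp3a11, dimmer probe shared by 4 genes: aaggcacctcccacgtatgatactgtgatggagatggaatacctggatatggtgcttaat
Cyp3a59, brighter probe: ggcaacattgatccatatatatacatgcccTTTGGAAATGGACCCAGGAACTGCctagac
Cyp3a57: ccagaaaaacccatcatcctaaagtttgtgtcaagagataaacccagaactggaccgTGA
Cyp3a41b: CACTGAGCTTTCTCAGTGTCTGTacaggtt
Cyp3a44: CACTGAGCTTTCTCAGTGTCTGTgcaagtt
Over the 53 bases in which the Cyp3a41b and Cyp3a44 probes overlap, 46 bases (86.8%) matched. Among the 52 pairs of probes of different genes, the next longest shared run was 9 bases. Whether a probe also bound transcripts of another Cyp3a gene was not tested, since transcript sequences were not used here.

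All 18 arrays behaved as liver. The 10 hepatocyte markers examined were above background on every array, and their summed level on the linear scale, relative to each array's 75th percentile, was 1426 to 2290 on linseed oil and 1483 to 1995 on palm oil. Of 12 markers of small intestine, another tissue that expresses Cyp3a genes, 7 were above background on no array and 2 on all, and the sum was 74.1 to 104 against 50 to 93.3. Between 17258 and 22445 probes per array were well above background, and the image software marked 238 to 1703 spots per array as uneven or outlying. Arrays were assigned to 5 slides that each held both diets. Linseed replicate 5 and palm replicates 5 and 6 had no slide identity in the file headers and were taken as slide 1. Slide held a share of 0.941 of the variance along the main axis of the residuals. Differences within slides are therefore given beside those over all arrays. Cyp3a values are given with marked spots kept unless stated, because marked spots removed 3 of 18 values from each Cyp3a11 probe. They are log2 of the processed signal minus the array's 75th percentile, so a value of 1 is a signal of 2 times that percentile. No Cyp3a spot was saturated.

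Cyp3a11 separated the diets completely. Its brighter probe had values of 7.37, 7.54 and 7.74 (lowest, median and highest of 8 mice) on linseed oil and of 4.94, 5.37 and 6.11 (of 10 mice) on palm oil. Every linseed mouse lay above every palm mouse, by at least 1.26. The mean difference was 2.03 ± 0.16 (SE), a signal 4.09 times as high on linseed oil, and 2.15 ± 0.16 with the 3 marked spots left out (n = 7 and 8). Within the 5 slides it ran from 1.82 to 2.38. The shared probe of Cyp3a11 and its neighbours gave 4.88, 5.13 and 5.50 against 2.10, 2.84 and 3.56, again without overlap, a difference of 2.38 ± 0.19. Marked spots fell on linseed replicates 6, 7 and 8 of that probe, so without them it had too few linseed values to be fitted.

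Cyp3a16, first described as a fetal form, was separated as widely. On linseed oil it had values of 4.51, 4.84 and 4.92, and on palm oil of 1.69, 2.34 and 3.14. The groups did not overlap. The difference was 2.31 ± 0.18, or 4.96 times, and lay between 2.08 and 2.73 within slides. The probe of Cyp3a41b and Cyp3a41a, which encode nearly the same female-predominant enzyme, gave 2.08, 2.42 and 2.86 on linseed oil against −0.65, −0.04 and 0.83 on palm oil. Its groups were apart as well, with a difference of 2.33 ± 0.20 (5.01 times) and 2.03 to 2.64 within slides. No spot of these probes was marked, so neither value changes when marked spots are left out.

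Cyp3a44, which lies between Cyp3a41a and Cyp3a11, was not measured. Its probe was well above background on 1 of 18 arrays, that of linseed replicate 1, and it entered no fit. The run of 23 bases it shares with the Cyp3a41b probe (sequences above) did not bring it above background on the other 17 arrays, although the Cyp3a41b probe was above background on all 18.

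At the other end of the cluster, Cyp3a59 had 1 probe that separated the diets and 1 that did not. The brighter probe, which covers the heme-binding loop, had values of 4.29, 4.56 and 4.79 on linseed oil and 2.46, 2.98 and 3.57 on palm oil. These groups did not overlap, and the difference was 1.48 ± 0.14, or 2.78 times, with 1.36 to 1.64 within slides. The dimmer probe, at chr5:146924485-146924544, had values of −1.20, −0.54 and −0.40 against −2.28, −1.64 and −0.89, and 5 of 8 linseed mice exceeded the highest palm mouse. Its difference was 0.82 ± 0.20. Both probes were higher on linseed oil within each of the 5 slides, the dimmer one by 0.38 to 1.17. Their difference in size was not tested.

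Cyp3a57 and Cyp3a25 showed smaller differences with overlapping groups. Cyp3a57 had values of 3.64, 4.04 and 4.28 on linseed oil and 3.08, 3.36 and 3.92 on palm oil, and 5 of 8 linseed mice lay above the highest palm mouse. Its difference was 0.55 ± 0.11, or 1.47 times, and 0.53 ± 0.12 with 1 marked spot left out. Cyp3a25 had 4.92, 5.22 and 5.82 against 4.31, 4.82 and 5.13, also with 5 of 8 linseed mice above the highest palm value and a difference of 0.46 ± 0.12 (1.38 times). Within slides both were higher on linseed oil on 5 of 5, by 0.33 to 0.87 for Cyp3a57 and 0.12 to 0.83 for Cyp3a25. The pair stand just inside and just outside the threshold of the fit across all probes, Cyp3a57 inside and Cyp3a25 outside. Leaving out any 1 of 13 mice, or using 10 of the 16 other settings, put Cyp3a57 outside too, at 0.46 to 0.58.

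Cyp3a13, which lies apart from the cluster and is also expressed in the gut, had values on the 2 diets that covered almost the same range. Its brighter probe gave 2.99, 3.34 and 3.93 on linseed oil and 2.90, 3.21 and 3.75 on palm oil. The difference was 0.11 ± 0.13, and 0.17 ± 0.12 with 1 marked spot left out. Its second probe, at chr5:138334265-138334324, gave 1.20, 1.69 and 2.33 against 1.26, 1.60 and 2.15, a difference of 0.01 ± 0.15. Both depended on slide 1, whose only linseed mouse, replicate 5, was the highest of all 18 on both probes: within that slide they were 0.85 and 0.95 higher on linseed oil, and within the other slides −0.18 to 0.14 and −0.30 to 0.05.

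**Figure D1:**
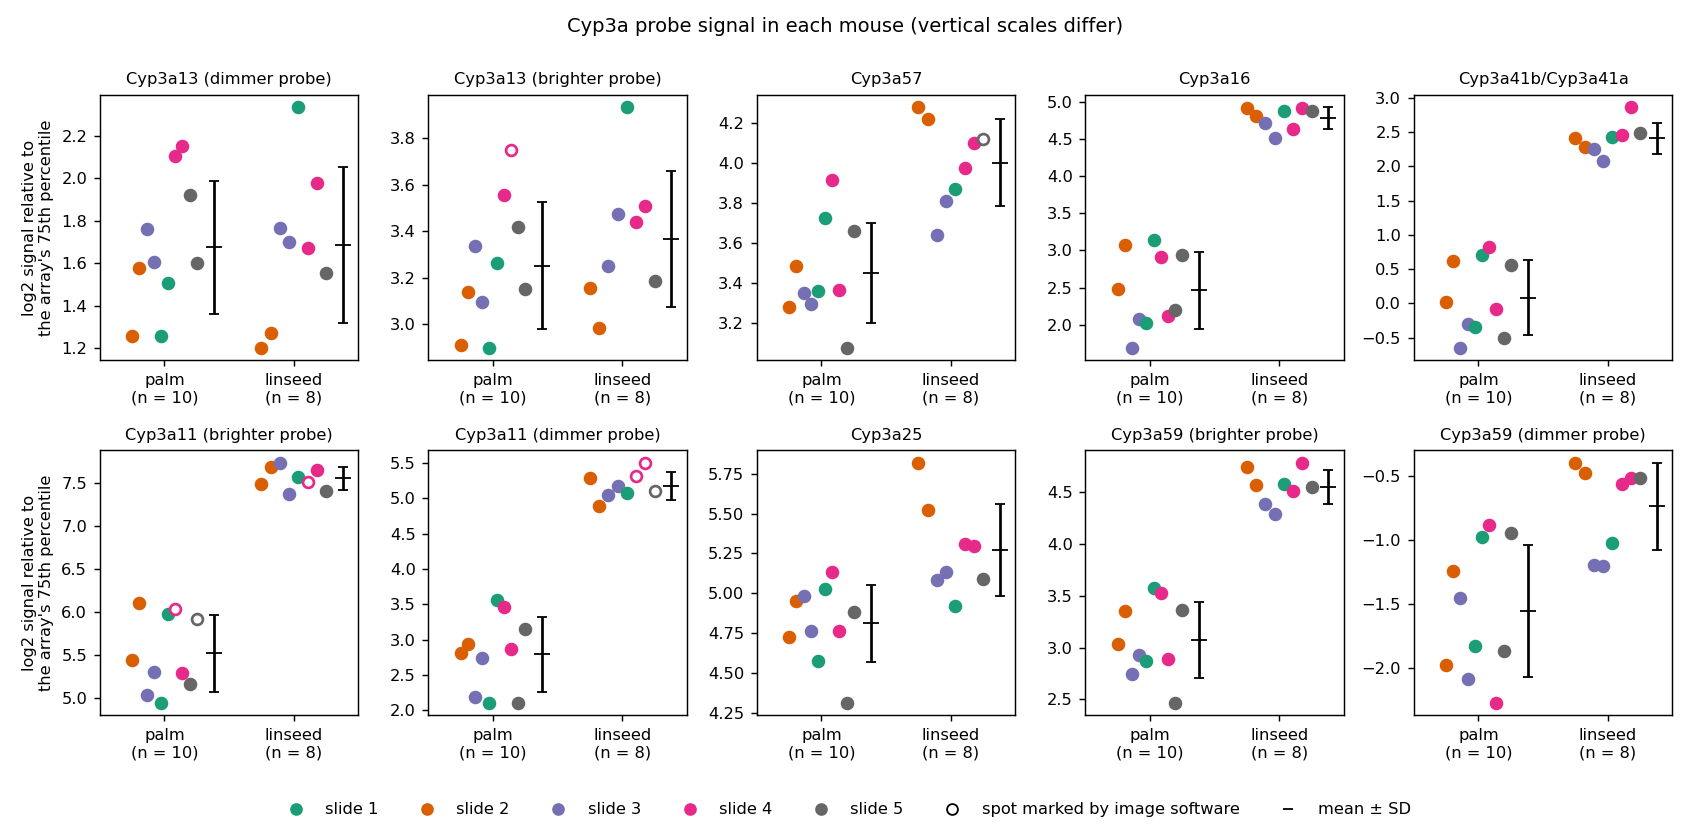
Each point is 1 mouse, with the log2 signal of a Cyp3a probe relative to its array's 75th percentile on the vertical axis (scales differ between panels), the diet on the horizontal axis and the slide as colour; open points are spots marked by the image software and bars are means ± SD (8 linseed and 10 palm mice, marked spots kept). The diets are fully apart for Cyp3a11, Cyp3a16, Cyp3a41b and the brighter Cyp3a59 probe, and overlap for Cyp3a57, Cyp3a25, Cyp3a13 and the dimmer Cyp3a59 probe.

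With marked spots left out, 9 probes of 7 Cyp3a genes could be fitted, and 5 probes of 5 genes passed an adjusted p of 0.05 as higher on linseed oil (limma, Benjamini-Hochberg over 19510 probes), where 0.589% of all probes did so. None passed as lower, against 0.164%. With marked spots kept, 10 probes were fitted and 6 passed as higher, against 0.721% of 20386 probes, and none as lower, against 0.186%. Groups did not overlap for 4 of the 9 and 5 of the 10 probes, against 0.149% and 0.162% of all probes. The median difference was 0.82 over the 9 and 1.15 over the 10 probes, and −0.0005 and 0.002 over all probes. Since the genes were chosen on this contrast, these counts are no evidence of their own.

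**Figure D2:**
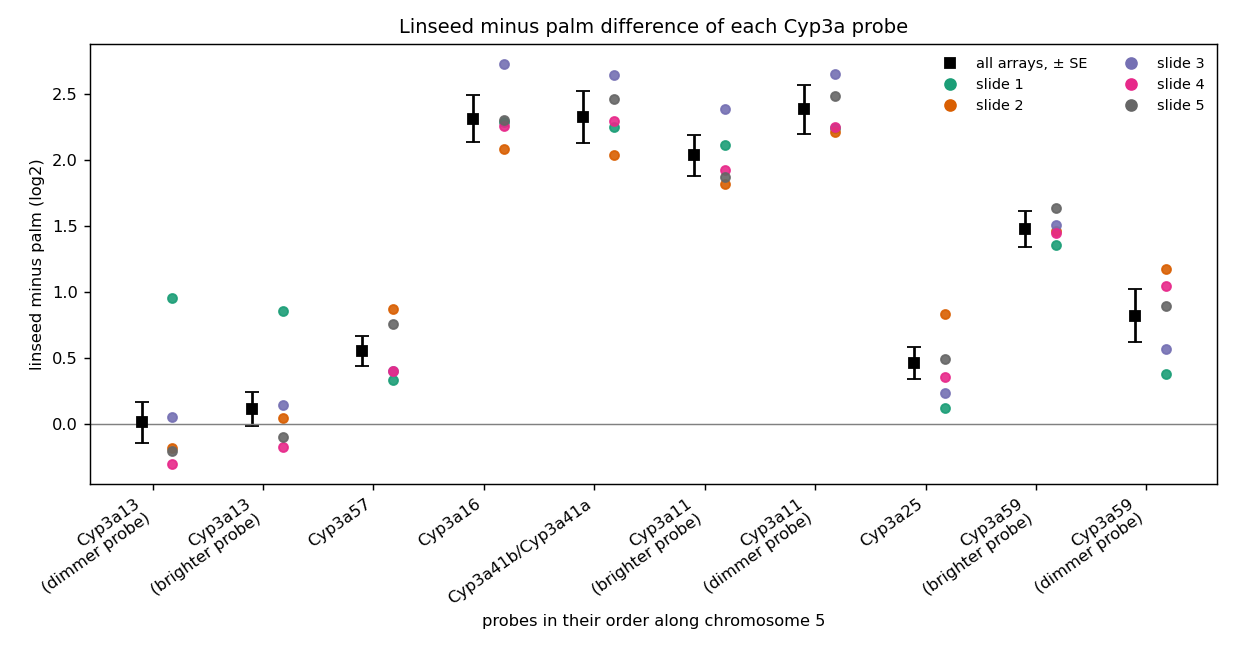
Linseed minus palm difference (log2) of each Cyp3a probe above background on all arrays, in order along chromosome 5 with distances not to scale; black squares are means over all 18 arrays ± SE and coloured points are differences within each of the 5 slides. Probes of Cyp3a16, Cyp3a41b and Cyp3a11 lie between 1.82 and 2.73 on every slide, Cyp3a57 and Cyp3a25 at 0.55 and 0.46 over all arrays, and Cyp3a13 near 0 except on slide 1.

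The size of the difference was not ordered along the chromosome. Cyp3a57, at one end of the cluster, and Cyp3a25, between Cyp3a11 and Cyp3a59, had the smallest differences in it, and each has as its neighbour a gene with a difference of at least 1.48. Genes beside the cluster were looked at for a wider change. Of the 5 protein-coding genes on either side of the cluster, 6 were tested and none passed (median 0.01, against −0.004 over 15951 genes). The nearest to passing were Cdk8, a kinase of the Mediator complex (−0.07 ± 0.07, adjusted p = 0.781, limma), Atp5j2, a subunit of ATP synthase (0.06 ± 0.08, adjusted p = 0.844, limma), and Rnf6, a ubiquitin ligase (0.03 ± 0.06, adjusted p = 0.910, limma). Of the 10 neighbours of Cyp3a13, 5 were tested and none passed, with Smok3b, a sperm kinase gene, at −0.21 ± 0.15 (adjusted p = 0.672, limma), Pilra at −0.19 ± 0.22 and Pilrb1 at −0.24 ± 0.28, the last a pair of immune receptor genes.

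The palm mice were not alike in their Cyp3a signal. The genes were chosen on the diet difference, and the fit of that difference also uses the spread within diets. On the brighter Cyp3a11 probe, palm replicates 2, 6, 7 and 10 had values of 6.11, 5.98, 6.04 and 5.92, and the other 6 palm mice lay between 4.94 and 5.44. The gap between them was 0.48, against a whole palm range of 1.17; whether the mice form separate clusters was not tested. The spots of replicates 7 and 10 were marked on that probe, but not on the Cyp3a16 probe, where the same 4 mice had 3.07, 3.14, 2.91 and 2.94 and the other 6 reached at most 2.48. They were also the 4 highest palm mice on the probe of Cyp3a41b (0.56 or more against at most 0.01), on both Cyp3a59 probes and on that of Cyp3a57 (3.49 or more against at most 3.37). The 4 mice came from 4 slides, each of which also held a palm mouse from below the gap. On slide 3 both palm mice lay below it.

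In all, the same 4 palm mice were the highest on 7 of the 10 Cyp3a probes that were above background on every array. The brighter Cyp3a11 probe is 1 of the 7 and was the probe by which the 4 mice were picked, which leaves 6 of the other 9. Over all 20386 probes the share was 0.559% (114 probes). The exceptions were Cyp3a25, on which 3 of its 4 highest palm mice were among them, and both Cyp3a13 probes, on which 1 was. The 6 probes include the shared Cyp3a11 probe and belong to neighbouring genes, so they are not independent of each other. What set these mice apart was not tested. Mice shared cages, and the labels give neither the cage nor any other feature that separates the 4.

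**Figure D3:**
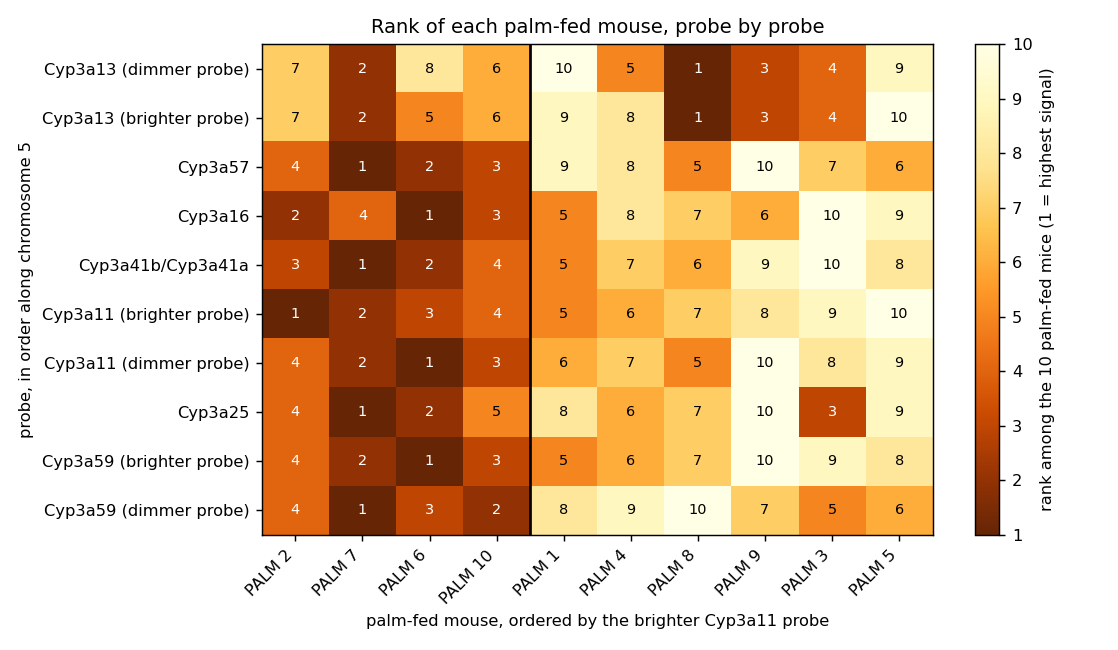
Rank of each palm-fed mouse (columns, ordered by the brighter Cyp3a11 probe) on each Cyp3a probe (rows, in order along chromosome 5), with 1 the highest of 10 signals; the vertical line separates replicates 2, 6, 7 and 10 from the others. These 4 mice hold ranks 1 to 4 on 7 of 10 probes, with Cyp3a25 and both Cyp3a13 probes as exceptions.

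Palm mice also spread more than linseed mice on the probes with the larger diet differences. The SD on the brighter Cyp3a11 probe was 0.45 over the palm mice and 0.13 over the linseed mice, a ratio of 3.38. The ratio was 3.48 for Cyp3a16, 2.76 for the shared Cyp3a11 probe, 2.40 for Cyp3a41b and 2.21 for the brighter Cyp3a59 probe. It was over 2 for 5 of the 10 Cyp3a probes, and for 2.54% of all probes, whose median was 0.911. For Cyp3a57 it was 1.14, for Cyp3a25 0.843 and for the brighter Cyp3a13 probe 0.932. On the log2 scale the linseed mice thus lay close together where the palm mice did not; the ratio was not tested.

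Covariation with Cyp3a11 was measured mouse by mouse within each diet, between the brightest probes of the genes, as 12 correlations adjusted together. Whether Cyp3a11 transcript also bound the other probes was not tested, so r describes probe signals and cannot be credited to separate transcripts. Over the 10 palm mice Pearson's r with Cyp3a11 was 0.963 for Cyp3a41b (Spearman's rho 0.915), 0.956 for Cyp3a16 (rho 0.879), 0.900 for Cyp3a59 (rho 0.867) and 0.778 for Cyp3a57 (rho 0.636). These 4 passed for r (permutation test, two-sided, adjusted p = 0.00444, 0.00444, 0.00864 and 0.0310; unadjusted p = 0.00044, 0.00074, 0.00216 and 0.0103), and for rho the first 3 did while Cyp3a57 did not (adjusted p = 0.146, permutation test). Cyp3a25 (r = 0.659, rho 0.624, adjusted p = 0.0719, permutation test) and Cyp3a13 (r = 0.0956, rho 0.0909, adjusted p = 0.861, permutation test) did not pass. With slide means taken out, r was 0.979, 0.992, 0.921 and 0.719 for Cyp3a41b, Cyp3a16, Cyp3a59 and Cyp3a57. The dimmer Cyp3a59 probe was not among the 12 correlations. Over all 18 mice with diet means taken out, its r with Cyp3a11 was 0.63, against 0.83 for the brighter Cyp3a59 probe (not tested). Leaving out marked spots removed palm replicates 7 and 10. Then r was 0.950 for both Cyp3a41b and Cyp3a16, which passed (exact permutation, n = 8, adjusted p = 0.0241 for each). Cyp3a59 at 0.860 and Cyp3a57 at 0.683 did not pass for r (exact permutation, n = 8, adjusted p = 0.0712 and 0.217). For rho, Cyp3a59 still passed (0.881, adjusted p = 0.0429, exact permutation).

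These values span the gap among the palm mice. Without palm replicates 2 and 7, the 2 mice farthest from the median of Cyp3a11, r was 0.953 for Cyp3a41b and 0.947 for Cyp3a16. Both passed (exact permutation, n = 8, adjusted p = 0.0176 for each). Cyp3a59 at 0.877 and Cyp3a57 at 0.793 did not (exact permutation, n = 8, adjusted p = 0.0518 and 0.119). Palm replicates 6 and 10, above the gap, stayed in, so these values span the gap as well. Within the 6 palm mice below the gap, a subset chosen after the data were seen, r was 0.740 for Cyp3a41b, 0.728 for Cyp3a16, 0.441 for Cyp3a59, −0.142 for Cyp3a57, 0.0939 for Cyp3a25 and 0.0623 for Cyp3a13. None of these 6 passed (exact permutation, n = 6, adjusted p of at least 0.308), in a subset of few mice. The 4 mice above the gap were too few for a correlation.

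Within the 8 linseed mice, r with Cyp3a11 was 0.307 for Cyp3a16, 0.216 for Cyp3a59, 0.212 for Cyp3a41b, 0.0417 for Cyp3a25, −0.131 for Cyp3a13 and −0.139 for Cyp3a57. No linseed correlation passed (exact permutation, n = 8, adjusted p of at least 0.861 over a family of 12). Without the 2 mice farthest from the median of Cyp3a11, r was between 0.0348 and 0.256. The linseed values depended on the scaling: after quantile normalization r was 0.895 for Cyp3a25 (adjusted p = 0.0124, exact permutation) and 0.653 for Cyp3a16. After slide means had been taken out, Cyp3a16 had an r of 0.776 and Cyp3a25 of −0.646.

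**Figure D4:**
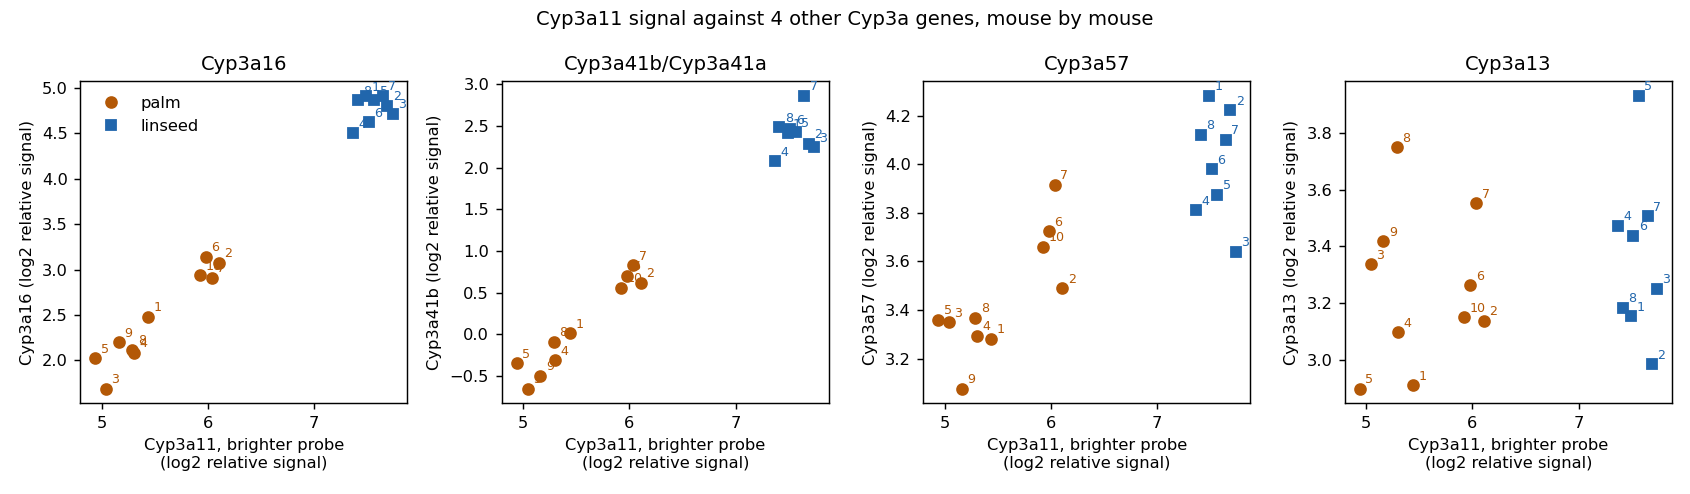
The log2 relative signal of the brighter Cyp3a11 probe (horizontal) against that of Cyp3a16, Cyp3a41b/Cyp3a41a, Cyp3a57 and the brighter Cyp3a13 probe (vertical), with 1 point per mouse, its replicate number beside it, and the diet as colour and shape. Palm replicates 2, 6, 7 and 10 were picked by this horizontal axis, so they lie to the right of the other palm mice. On the vertical axis they are the highest palm mice for Cyp3a16, Cyp3a41b and Cyp3a57, but not for Cyp3a13. The linseed mice form a tight group along Cyp3a11.

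Outside the family, the genes most like the Cyp3a mean were sought among 11383 genes above background on all arrays. Likeness was Pearson's r over the 18 mice between a gene's values and the mean of the brightest probe of each Cyp3a gene, both after their diet's mean had been taken out; it includes the gap among palm mice and was not tested. Among the 5 most alike were Chpt1, which completes phosphatidylcholine synthesis (0.759, and 0.733 with slide means taken out), the carboxylesterase gene Ces1g (0.738 and 0.719), Pls3, an actin-bundling protein (0.737 and 0.797), and Sulf2, an extracellular sulfatase (0.716 and 0.735). Likeness was measured apart from the diet difference: with marked spots kept, Chpt1 rose by 0.52 (adjusted p = 0.0354, limma), whereas Ces1g differed by 0.20 (adjusted p = 0.758, limma) and did not pass.

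The receptors and factors that control Cyp3a genes did not pass. Of 26 listed genes 24 were tested, with none called in either direction and a median difference of 0.008. Nr1i2, which encodes PXR, differed by 0.06 ± 0.22 (adjusted p = 0.956, limma) and turned to −0.01 without linseed replicate 7 and −0.05 without palm replicate 1. Nr1i3, which encodes CAR, differed by 0.17 ± 0.10 (adjusted p = 0.606, limma) and their partner Rxra by −0.10 ± 0.08 (adjusted p = 0.726, limma). Hnf4a, the hepatocyte factor, could be fitted only with marked spots kept (0.003 ± 0.12, adjusted p = 0.998, limma). The gene with the smallest p was Gadd45b, a stress-inducible gene whose protein can act with CAR (0.57 ± 0.27, adjusted p = 0.470, limma). Transcript levels do not show the activity of a receptor.

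Among other targets of CAR and PXR, 4 of 27 tested genes rose on linseed oil and none fell, where 0.552% of all 15951 genes rose and 0.188% fell, with a median of 0.19 against −0.004 over all genes. Abcc3, which exports conjugated drugs and bile acids to the blood, had a mean of 5.00 ± 0.24 (SD, n = 6) on linseed oil and 3.87 ± 0.23 (SD, n = 9) on palm oil. It rose by 1.13 ± 0.12 (adjusted p = 3.21e-04, limma), a call that ended in 1 of 34 other settings, with the replicate number as a block (adjusted p = 0.092, limma). Ephx1, microsomal epoxide hydrolase, rose by 0.78 ± 0.14 (adjusted p = 0.0124, limma), a call that ended in 4 of 34 settings, with the replicate number as a block, without slide 1, without slides 4 and 5 and with the percentile over unmarked spots (0.66 to 0.79). Gsta1 and Gsta2, glutathione transferases of closely similar sequence whose probes may share signal, rose by 1.30 ± 0.26 and 1.09 ± 0.24 (adjusted p = 0.0282 and 0.0379, limma). The Gsta1 call ended in 11 of 34 settings, among them normexp background correction (0.51) and the arrays without linseed replicate 1, 2, 5 or 7 or palm replicate 5 (1.13 to 1.32). With marked spots kept 5 of 30 rose, against 0.683% of all genes, the addition being Ces2a, a carboxylesterase (0.65 ± 0.13, adjusted p = 0.0202, limma), chosen after its values were seen. Cyp2b10, the best known CAR target, differed by 1.31 ± 0.57 and did not pass (adjusted p = 0.411, limma), and Cyp2c29, another P450 gene that CAR induces, was at −0.0006 ± 0.09.

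The supply of electrons and heme to P450 enzymes had no called gene among 14 tested (median 0.04). Por, the oxidoreductase itself, differed by 0.15 ± 0.21 (adjusted p = 0.863, limma), and Pgrmc1, a heme-binding partner of P450 enzymes, by 0.24 ± 0.08 (adjusted p = 0.259, limma). With marked spots kept, 1 of 18 rose (0.683% of all genes), Blvrb, a biliverdin reductase that acts in heme breakdown (0.44 ± 0.08, adjusted p = 0.0145, limma); it was chosen after its values were seen.

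Because Cyp3a16 and the Cyp3a41 genes are female-predominant or perinatal, lists of such genes were set beside them. Of 14 female-biased liver genes tested, 2 rose and none fell (median 0.26; 0.552% and 0.188% of all genes): Acot3 by 1.91 ± 0.31 (adjusted p = 0.00477, limma) and Acot4 by 0.75 ± 0.13 (adjusted p = 0.0105, limma). Without slide 1 and without slides 4 and 5 both calls ended, and that of Acot4 also ended with the replicate number as a block and with the percentile over unmarked spots. Both encode acyl-CoA thioesterases, which are also known targets of the fatty acid receptor PPARalpha. Of 18 male-biased genes none passed (median 0.01), with Susd4 nearest to passing at −0.32 ± 0.15. Of 14 genes of growth hormone and STAT5 signalling, the pathway that sets sex-biased expression in liver, none passed, with the estrogen receptor gene Esr1 nearest at −0.62 ± 0.20 (adjusted p = 0.204, limma). Among 7 fetal and newborn liver genes tested, 1 rose (0.552% of all genes) and none fell: Cdkn1c, an inhibitor of the cell cycle, by 0.39 ± 0.08 (adjusted p = 0.0245, limma). The Cdkn1c call ended in 11 of 34 settings, among them those without linseed replicate 2, 3, 5 or 7 or palm replicate 5 (0.37 to 0.38).

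Cyp3a11 is strongest around the central vein, so genes of both ends of the liver lobule were counted. Of 14 pericentral genes 1 fell and none rose (median −0.02), where 0.188% of all genes fell and 0.552% rose. This was Cyp7a1, which commits cholesterol to bile acids, at −0.998 ± 0.22 (adjusted p = 0.0378, limma). Of 16 periportal genes 1 fell and none rose (median 0.05, the same shares of all genes applying), namely Cdh1, E-cadherin, at −0.50 ± 0.11 (adjusted p = 0.0356, limma). Both calls were fragile: that of Cyp7a1 ended in 14 of 34 settings and that of Cdh1 in 17 of 34. Among these, leaving out 1 mouse ended that of Cyp7a1 for 9 of 18 mice (−1.001 to −0.847) and that of Cdh1 for 11 of 18 (−0.52 to −0.42).

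No marker list of another cell type had a called gene. Adipocyte markers summed to 6.64 to 42.8 on linseed oil and 3.69 to 16.5 on palm oil (4 of 10 above background on all arrays, 1 on none), and their median difference was 0.41 over 6 tested genes. Cfd, the adipocyte protease adipsin, was the member nearest to passing, at 2.54 ± 0.88 (adjusted p = 0.264, limma). Pancreas markers summed to 0.585 to 0.846 against 0.553 to 18.3, with Cela2a, an elastase, at −1.29 ± 0.49. Kupffer cell (59.3 to 144 against 56.6 to 118), stellate cell (51.5 to 81.9 against 46.1 to 72.0), endothelial (55.6 to 74.4 against 46.2 to 75.1), cholangiocyte (1.13 to 1.96 against 1.18 to 4.45) and neutrophil markers (2.01 to 4.91 against 2.77 to 10.1) overlapped between the diets. The part of adipocyte or other RNA in the Cyp3a differences was not tested. In whole liver, fewer cells with a transcript and less of it per cell cannot be told apart.

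The sequences before the gene starts were compared because the genes moved by such different amounts. Promoter sequences of all 9 genes were found in the RefSeq table of GRCm38.p6, a later build than that of the probe positions, and the 250 bases before each start were used. They fell into 2 sets. Cyp3a11, Cyp3a16, Cyp3a41a, Cyp3a41b and Cyp3a44 were 72.5% to 99.6% identical to each other (10 pairs), and Cyp3a25, Cyp3a57 and Cyp3a59 were 88.9% to 94.8% identical (3 pairs). Between the sets identity was 52.7% to 57.4% (15 pairs), and between Cyp3a13 and the others 52.4% to 58.0% (8 pairs). The measured genes of the first set had differences of 2.03 to 2.33 on their brightest probes. In the second set Cyp3a59 was at 1.48 (0.82 on its dimmer probe), Cyp3a57 at 0.55 and Cyp3a25, 94.8% identical to Cyp3a59 over these bases, at 0.46. Differences between these genes were not tested.

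A pair of promoters from each of the 2 sets is shown 5′ to 3′, with motifs found on either strand in capitals. Cyp3a11 (chr5:145879855-145880104, minus strand) and Cyp3a16 (chr5:145469724-145469973, minus strand) stand for the first set. Cyp3a59 (chr5:146079008-146079257, plus strand) and Cyp3a57 (chr5:145345019-145345268, plus strand) stand for the second and are 90.1% identical.
Cyp3a11: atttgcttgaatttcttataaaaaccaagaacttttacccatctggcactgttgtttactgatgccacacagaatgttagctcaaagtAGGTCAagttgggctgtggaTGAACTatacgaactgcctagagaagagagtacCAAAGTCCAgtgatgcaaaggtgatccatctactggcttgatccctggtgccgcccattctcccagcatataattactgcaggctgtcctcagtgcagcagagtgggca
Cyp3a16: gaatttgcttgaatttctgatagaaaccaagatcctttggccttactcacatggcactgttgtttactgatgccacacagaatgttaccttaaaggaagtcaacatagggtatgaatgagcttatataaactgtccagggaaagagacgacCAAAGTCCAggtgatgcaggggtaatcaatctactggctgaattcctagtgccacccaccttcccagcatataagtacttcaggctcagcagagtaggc
Cyp3a59: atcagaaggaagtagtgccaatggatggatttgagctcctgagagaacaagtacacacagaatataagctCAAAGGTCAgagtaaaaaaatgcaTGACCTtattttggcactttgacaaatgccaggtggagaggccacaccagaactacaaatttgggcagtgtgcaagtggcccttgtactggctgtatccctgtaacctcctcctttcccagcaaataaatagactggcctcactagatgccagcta
Cyp3a57: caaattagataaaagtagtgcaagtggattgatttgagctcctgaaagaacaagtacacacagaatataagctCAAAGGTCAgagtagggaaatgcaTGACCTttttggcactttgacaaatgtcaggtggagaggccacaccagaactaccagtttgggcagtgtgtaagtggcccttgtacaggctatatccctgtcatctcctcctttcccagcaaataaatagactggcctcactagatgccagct
The motifs searched were the nuclear receptor half-sites AGGTCA and AGTTCA, their paired forms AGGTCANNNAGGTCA, AGTTCANNNAGTTCA and TGAACTNNNNNNAGTTCA, and the 9-base motifs CAAAGTCCA and CAAAGGTCA. The 9-base motifs were chosen after the sequences had been seen, and CAAAGGTCA contains AGGTCA. CAAAGTCCA was found in Cyp3a11, Cyp3a16, Cyp3a41a and Cyp3a41b, 109, 99, 95 and 95 bases before the start, and in 0.381% of all 27025 promoters. CAAAGGTCA was found in Cyp3a25, Cyp3a57 and Cyp3a59, 179, 177 and 180 bases before the start, and in 0.407% of all promoters. AGGTCA was present in 5 of the 9 (Cyp3a11, Cyp3a25, Cyp3a44, Cyp3a57 and Cyp3a59) and in 13.8% of all promoters, and AGTTCA in 3 of the 9 (Cyp3a11, Cyp3a41a and Cyp3a41b) and in 11.9%. None of the paired forms was in these windows, and over all promoters the first and the third were found in 2 each and the other in 0. Cyp3a13 held none of the motifs searched. Paired forms with other spacings or orientations, pairs that mix the half-sites, and sites with mismatches were not searched, nor were sites farther upstream.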

How the data were processed

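Per the labels' protocols, Cy3-labelled cRNA was made from 1 µg of total liver RNA per mouse. Per the file headers, the authors extracted spot intensity values using Feature Extraction 9.5.3.1 (Agilent); its processed signal has the background of each array subtracted and carries no scaling across arrays. Feature Extraction 9.5 and limma are the tools in the submitters' processing notes. The authors' deposited value table holds log2 values with a normalization that the sources used here do not state, and served as an alternative. All deposited columns mapped to the arrays were used as the labels name them, and slides were numbered by the header's order, slide 1 being the arrays with no slide identity in the header.

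The log2 of each processed signal was set against the 75th percentile of its array over 39429 non-control probes (117 to 204 intensity units). Marked spots were left out for counts over all genes and lists, and kept for the Cyp3a values by mouse. Probes were fitted if at least 8 arrays had them well above background and each group had values on at least 6 arrays, using limma 3.58.1 (R 4.3.3; two-sided, lmFit with eBayes and no covariates), every probe on its own, with Benjamini-Hochberg adjustment and a threshold of 0.05; 147 probes passed, 115 higher and 32 lower on linseed oil. The brightest tested probe stood for a gene in lists. Correlations used exact permutation over pairings (scipy 1.17.1), or 100000 resamples for 10 mice. Probe names were updated through the RefSeq table (26049 by accession, 3200 by symbol, 930 by synonym, 9250 unchanged). The procedure was tested on simulated data, with noise independent between arrays and no slide effect. That simulation could not check how slides bear on the calls. The number of arrays limits the precision of every value.

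The Cyp3a genes, the lists and the tests were chosen with earlier results of these data known. Named genes were every Cyp3a probe; in each list, at most 3 called genes taken by adjusted p, or else the gene of lowest p; the regulators Nr1i2, Nr1i3, Rxra, Hnf4a, Por and Cyp2b10; the 5 genes most like the Cyp3a mean, of which 1 is not reported here; and up to 3 neighbours of each run. The added names Gsta2, Ces2a, Blvrb and Cyp2c29, and the counts of highest palm mice and of SD ratios, were chosen after the values were seen.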

Additional observations from a re-analysis of the deposited data

How the results depend on the processing

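Over 34 alternatives the number of Cyp3a probes called stayed between 4 and 6 (5 in the reported setting). The genes were chosen on this contrast in these same arrays, so their pass counts are no evidence of their own. Cyp3a11, Cyp3a16, Cyp3a41b and the brighter Cyp3a59 probe passed in 34 of 34, at 1.99 to 2.25, 2.23 to 2.39, 1.85 to 2.41 and 1.40 to 1.53. Cyp3a25 passed in none (0.38 to 0.51), Cyp3a57 in 11 (0.46 to 0.59) and the dimmer Cyp3a59 probe in 5 of 33 (0.41 with normexp to 0.90; 0.58 in the authors' table). Over all probes the count of 147 became 50 with the percentile over unmarked spots, 49 with no filter on dim probes, 74 with normexp, 253 with slide as a random block, 32 without slide 1, 26 without slides 4 and 5, and 60 to 185 without 1 array (under 100 without linseed replicate 2, 3, 5 or 7 or palm replicate 1, 5, 6, 9 or 10). The 9 called genes of the lists became 3 with unmarked spots, 4 with no filter, 1 without slide 1, 1 without slides 4 and 5, and 4 to 10 without 1 array (4 or 5 without linseed replicate 3, 5 or 7 or palm replicate 5). The cause was not tested, and the settings that left out slides also had fewer arrays.

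Replicate numbers were not taken to pair the mice, since the correlation of same-numbered residuals was over 0.1 for 6 of 8 numbers and not for all (−0.220 to 0.487), and 2 of 8 were best with their own number. The same-numbered mice of those 6 numbers shared a slide, and those of numbers 6 and 8 did not. With the replicate number as a block, 20 probes and 1 listed gene passed; Cyp3a57 was at 0.50 and outside the threshold, and 4 Cyp3a probes still passed.

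Uncalled values changed sign. The dimmer Cyp3a13 probe was at −0.0294 with unmarked spots, −0.0165 with quantile normalization, −0.155 without slide 1 and −0.0821 to 0.0798 without 1 array. Rnf6 was at −0.00828, −0.0151 and −0.00695 under the first 3 of these, and Nr1i2 at −0.0526 to 0.196 without 1 array. Correlations with Cyp3a11 in linseed mice became −0.192 (normexp) and −0.0276 (authors' table) for Cyp3a41b; 0.724 (quantile), 0.546 (authors' table) and 0.0442 (without the 2 farthest mice) for Cyp3a57; and 0.0348 (without the 2 farthest) for Cyp3a13. In palm mice Cyp3a13 was at −0.0143 without the 2 farthest and Cyp3a57 at −0.142 in the lower 6. Over all 10 palm and 8 linseed mice 4 of 12 correlations passed, all in palm mice; 5 passed with normexp, 5 with quantile normalization and 4 in the authors' table, 2 with marked spots left out, 2 without the 2 farthest mice, and 0 of 6 in the lower 6 palm mice, an alternative added after the data were seen.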
